A study of Mus musculus with 17 samples.

Results

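A set of 10 genes of type 2 immunity was followed across all 17 libraries of the series. The rule lists them by name and uses no measured value, and they are 10 of the 30406 genes that the deposited matrices share. They comprised the type 2 cytokines Il4, Il5, Il13 and Il31, the alarmins Il33 and Tslp, and the receptor chains Il4ra, Il13ra1, Il1rl1 and Crlf2. The series asked how cells of the PDGFRb lineage change in fibrosing skin and kidney, and whether more SARA, the SMAD anchor encoded by Zfyve9, alters this. GFP+ cells were sorted from the skin or kidney of 8-week-old PDGFRb-Cre Z/EG mice and sequenced with a droplet method that reads the 3′ end of each transcript. SARAWT mice carried the Cre and the GFP reporter alone, and SARATg mice also carried a human ZFYVE9 cDNA in Rosa26, driven by a CAG promoter once Cre has removed a stop cassette. All mice of both genotypes carried the constitutive PDGFRb-Cre, which per the study is also active in leukocyte lineages of the embryo. By their markers, 2252 of 30085 kept skin cells were fibroblast-like stromal and 112 mural (pericytes and smooth muscle), and in kidney 56 of 71324 were of each, so that most sorted cells lay outside these classes. In skin, 3 SARAWT PBS, 3 SARAWT bleomycin, 1 SARATg PBS and 1 SARATg bleomycin library were compared, with bleomycin given under the skin at 20 mg/kg 3 times a week for 2 weeks per the labels, where the study's methods give daily injections. In kidney, 3 SARAWT vehicle, 3 SARAWT aristolochic acid, 2 SARATg vehicle and 1 SARATg aristolochic acid library were compared, with aristolochic acid injected into the peritoneum at 5 mg/kg 3 times a week for 3 weeks.

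IL-4, IL-5 and IL-13 are made mainly by T helper 2 cells, group 2 innate lymphoid cells (ILC2), mast cells and basophils. IL-33 and TSLP are alarmins, released by stromal and epithelial cells at barriers, and they act on those producers through ST2 (encoded by Il1rl1, with IL-1RAP) and through the TSLP receptor (Crlf2, with the IL-7 receptor alpha chain). IL-4 and IL-13 signal through IL-4R alpha (Il4ra), paired either with the common gamma chain or with IL-13R alpha 1 (Il13ra1), and STAT6 carries the signal; this axis is known for allergic skin inflammation and for fibrosis.

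Il4, Il13 and Il5 lie in one cluster on the GRCm38.p6 assembly, the build that mm10 names, with Il4 at chr11:53602982-53618669 on the minus strand, Il13 at chr11:53631324-53634702 on the minus strand and Il5 at chr11:53720794-53725106 on the plus strand. Il1rl1 lies at chr1:40429570-40465415 on the plus strand. These 4 genes had their highest skin levels in mast cells, basophils or lymphoid cells, and their promoter windows from RefSeq, 250 bases before to 50 bases after an annotated start, are printed 5′ to 3′ on the gene's strand. Capitals mark GATA motifs, searched as AGATAA or AGATAG or TGATAA or TGATAG on both strands, because GATA3 is the master transcription factor of T helper 2 cells and ILC2 and GATA2 that of mast cells. The windows are chr11:53618616-53618915 and chr11:53617289-53617588 for Il4, chr11:53634653-53634952 for Il13, chr11:53720544-53720843 for Il5, and chr1:40429320-40429619 and chr1:40439379-40439678 for Il1rl1.
Il4, outer start: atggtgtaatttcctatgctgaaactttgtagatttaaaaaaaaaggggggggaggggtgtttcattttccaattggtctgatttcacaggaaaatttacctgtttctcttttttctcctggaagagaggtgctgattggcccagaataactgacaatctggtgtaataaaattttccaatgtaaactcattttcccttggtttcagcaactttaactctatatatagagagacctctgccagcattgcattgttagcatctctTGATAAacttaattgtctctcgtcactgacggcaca
Il4, inner start: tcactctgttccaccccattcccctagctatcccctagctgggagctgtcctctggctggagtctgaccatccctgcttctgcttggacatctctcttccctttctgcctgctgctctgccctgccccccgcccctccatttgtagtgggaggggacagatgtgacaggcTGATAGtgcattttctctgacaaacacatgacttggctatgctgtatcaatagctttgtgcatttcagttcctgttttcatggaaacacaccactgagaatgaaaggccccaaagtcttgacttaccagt
Il13: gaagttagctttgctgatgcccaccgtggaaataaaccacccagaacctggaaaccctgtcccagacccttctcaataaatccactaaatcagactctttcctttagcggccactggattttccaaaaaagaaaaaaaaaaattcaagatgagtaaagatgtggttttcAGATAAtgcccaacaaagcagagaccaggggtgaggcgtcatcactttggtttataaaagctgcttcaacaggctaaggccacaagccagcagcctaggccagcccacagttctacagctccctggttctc
Il5: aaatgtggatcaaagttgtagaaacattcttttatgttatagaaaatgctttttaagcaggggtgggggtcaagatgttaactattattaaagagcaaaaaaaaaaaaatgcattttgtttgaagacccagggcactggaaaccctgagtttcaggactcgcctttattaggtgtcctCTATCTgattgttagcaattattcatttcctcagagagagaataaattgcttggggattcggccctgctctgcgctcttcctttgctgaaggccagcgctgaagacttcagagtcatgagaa
Il1rl1, outer start: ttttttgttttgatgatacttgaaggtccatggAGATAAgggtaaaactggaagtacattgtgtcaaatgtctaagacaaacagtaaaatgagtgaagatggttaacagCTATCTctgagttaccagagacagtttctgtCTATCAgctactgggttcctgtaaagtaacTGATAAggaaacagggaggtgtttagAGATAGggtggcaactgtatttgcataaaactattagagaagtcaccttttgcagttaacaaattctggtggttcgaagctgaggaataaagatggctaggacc
Il1rl1, inner start: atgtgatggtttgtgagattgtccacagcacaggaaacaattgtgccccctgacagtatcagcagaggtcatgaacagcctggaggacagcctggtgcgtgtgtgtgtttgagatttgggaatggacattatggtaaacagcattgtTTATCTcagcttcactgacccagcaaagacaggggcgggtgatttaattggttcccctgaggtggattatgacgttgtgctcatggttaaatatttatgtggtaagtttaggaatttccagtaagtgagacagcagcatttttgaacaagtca

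The outer Il1rl1 window held 5 such motifs, 217, 141, 110, 80 and 54 bases before the start, and none of them overlapped. The inner Il1rl1 window held 1, 103 bases before the start. The Il13 window held 1 at 81 bases before the start, the Il5 window 1 at 72 bases, and the inner Il4 window 1 at 80 bases. In the outer Il4 window the motif began 14 bases after the start. Of 32851 promoter windows of this length in the table, 29.8% held at least 1 of the motifs and 15 windows (0.0457%) held 5 or more. The windows of Il33, Il4ra, Il13ra1, Il31 and Crlf2 held none of these letters, which says nothing about GATA factors at those genes. A match of letters is a description and not a binding site.

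The libraries held 3355217 to 69765525 unique molecular identifiers (UMIs, each 1 captured transcript) in skin and 28660151 to 137093834 in kidney, over 31972 and 75562 barcodes. Filters kept 30085 skin and 71324 kidney cells. The skin library labelled SARAWT PBS 2 was far shallower than the others, with 781 cells kept at a median of 1271 UMIs. Of its barcodes, 56.2% also occurred in another library. That share was 9.45% in SARAWT PBS 1, 19.0% and 23.9% in SARAWT bleomycin 1 and 2, and 2.29% to 2.98% in all other libraries. The SARA signal went against some labels. Zfyve9 was at 621 CPM (UMIs of a gene per 1000000 UMIs of the sum) in the skin library labelled SARAWT PBS 3, above both SARATg skin libraries (314 and 224 CPM), and the library labelled SARAWT PBS 1 held 28671 human ZFYVE9 UMIs, against 638 to 2558 in the other 3 libraries whose gene list includes that transcript. In kidney, the library labelled SARAWT aristolochic acid 1 stood at 167 CPM of Zfyve9 and the one labelled SARATg aristolochic acid 1 at 20.7 CPM, inside the 11.1 to 31.8 CPM of the other SARAWT kidney libraries. SARAWT skin replicates 1 and 2 were quantified with a longer gene list than replicate 3, so that gene list and replicate number cannot be told apart.

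Cells were assigned to classes by markers that include no member of the set, with at least 3 of a class's markers on. Class names are therefore rebuilt labels in the sense of "macrophage-like", and the suffix is left out below except for ILC2-like cells. The ILC2-like class is among the least secure, since 3 of its 7 independent check markers were raised in skin and 2 of 7 in kidney. Regulatory T cells had 2 of 5 raised in each tissue. All check markers were raised in mast cells, fibroblast-like stromal cells, macrophages and alpha-beta T cells of the skin. Alpha-beta T cells of the skin held the 17 ILC2 markers at 53.1% to 117% of their summed CPM in ILC2-like cells of the same library, over the 5 libraries with at least 10 ILC2-like cells. Lymphoid cells with ILC2 markers but with Cd3g or Trbc2 UMIs and no Trac, Cd3e or Cd3d were kept apart as Cd3g/Trbc2 lymphoid cells. Levels are CPM of the UMIs summed over a class in 1 library, for classes with at least 10 cells there. In a sum over all cells, fewer cells of a type and less RNA per cell cannot be told apart. Of all kept cells, 24.2% in skin and 18.0% in kidney took no class, and 7.54% and 6.07% carried markers of more than 1 cell family and were set aside as mixed.

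**Figure D1:**
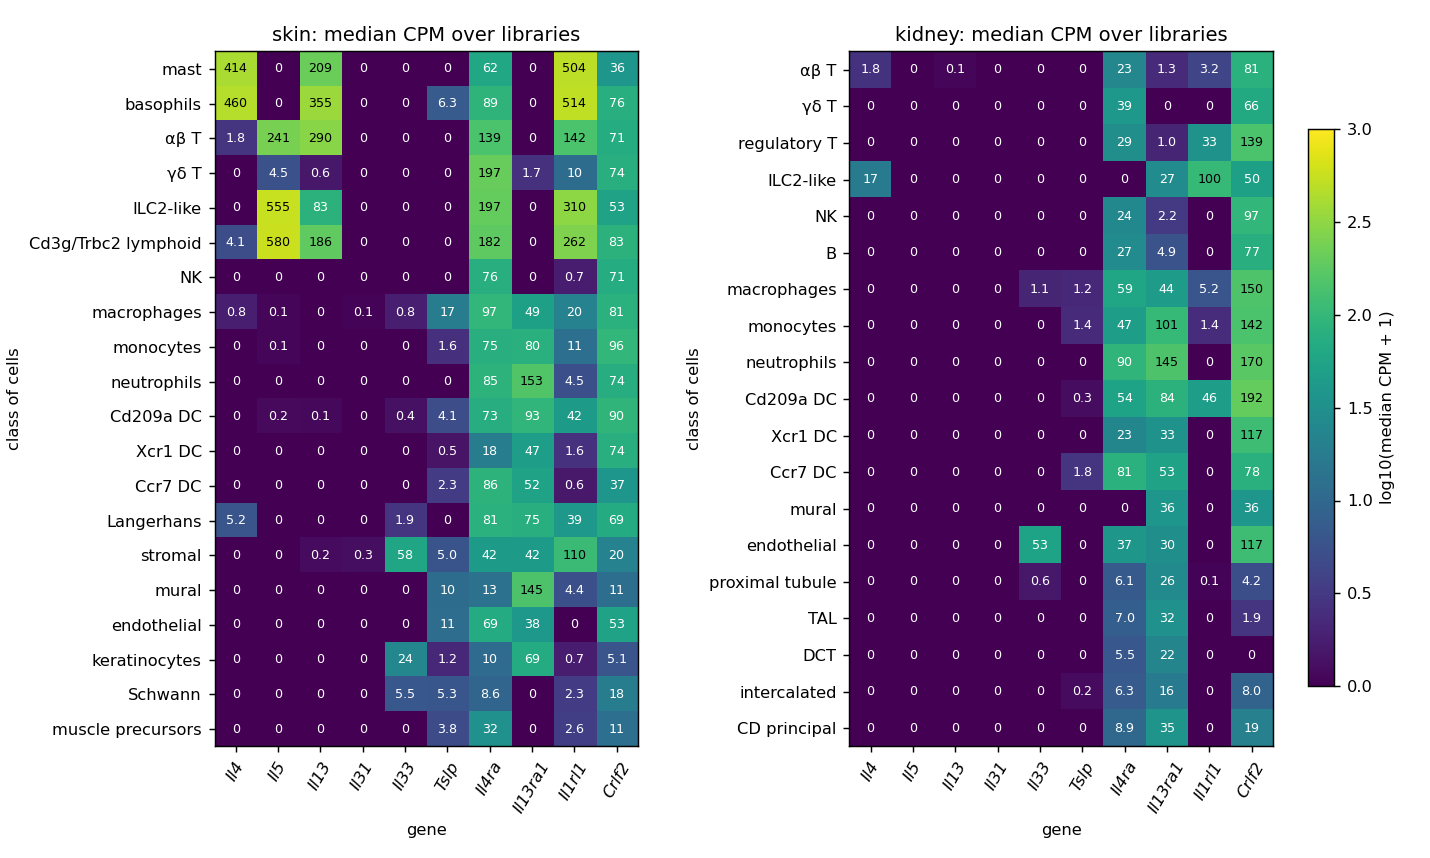
Median CPM of the 10 genes (columns) in each cell class (rows) of skin and kidney, over libraries with at least 10 cells of the class, coloured on a log10(CPM + 1) scale. In skin, Il4, Il5 and Il13 had their highest medians in mast cells, basophils and lymphoid cells, while Il4ra, Il13ra1 and Crlf2 were spread over many classes.

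Among the GFP+ cells sorted from skin, IL-4 transcripts were found chiefly in mast cells, and shares of UMIs below are of these sorted cells. Mast cells held 502 of the 966 Il4 UMIs (52.0%), and their level ran from 111 to 548 CPM with a median of 414 CPM over 7 libraries. Basophils reached 330 and 589 CPM in the 2 libraries with enough of them, while alpha-beta T cells ran from 0 to 13.1 CPM with a median of 1.79 CPM, and ILC2-like cells had no Il4 UMI in 123 cells. No mast cell library overlapped any alpha-beta T cell library. On log2(CPM + 10), mast cells exceeded alpha-beta T cells of the same library by 4.66 ± 0.885 (SD, n = 7; higher in 7 of 7; exact sign-flip permutation test, two-sided, adjusted p = 0.0290). Against ILC2-like cells the 5 libraries allowed no exact p under 0.0625 (adjusted p = 0.0956). Cells with at least 1000 UMIs were thinned to 1000, and cells under that were left out, so that 500 of 753 mast cells entered. Of these 500, 26.2% still held an Il4 UMI, against 0.129% of 4654 macrophages. Unthinned, over all cells of each class, the shares were 35.6% and 1.07%, at library medians of 1103 to 1553 UMIs for mast cells and 5074 to 12336.5 UMIs for macrophages. Neutrophils, which should lack the gene, held an Il4 UMI in 0 of 2063 thinned cells (exact 95% interval up to 0.179%) and in 0.0471% unthinned, at library medians of 2355 to 2926 UMIs. The thinned interval of macrophages, 0.0473% to 0.280%, overlaps theirs, so no macrophage expression of Il4 is read from it.

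IL-5, the growth factor of eosinophils, was instead a lymphoid transcript and nearly absent from mast cells. Cd3g/Trbc2 lymphoid cells ran from 123 to 1295 CPM of Il5 with a median of 579.9 CPM over 5 libraries, and ILC2-like cells from 121 to 1357 CPM with a median of 555 CPM. Alpha-beta T cells ran from 29.9 to 1925 CPM with a median of 241 CPM over 7 libraries and, being more numerous, held 1979 of the 5573 Il5 UMIs (35.5%). Mast cells held 1 Il5 UMI in 753 cells and basophils held none in 38, where 3 UMIs would be 18.5 CPM. The ranges of the 3 lymphoid classes overlapped widely, and Il5 did not separate ILC2-like from alpha-beta T cells (difference 0.98 ± 2.98, SD, n = 5; exact sign-flip permutation test, adjusted p = 0.52).

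Transcripts of IL-13, which acts on epithelium, macrophages and fibroblasts, were found in both groups of producers among the sorted cells. Il13 ran from 15.5 to 1123 CPM with a median of 289.6 CPM in alpha-beta T cells (38.3% of 2590 UMIs), from 40.2 to 384 CPM with a median of 209 CPM in mast cells, and from 39.1 to 739 CPM with a median of 83.1 CPM in ILC2-like cells. Basophils stood at 304 and 406 CPM and Cd3g/Trbc2 lymphoid cells at 34.9 to 306 CPM. Mast cells and basophils thus carried Il4 with Il13, and the lymphoid classes Il5 with Il13. Between ILC2-like and alpha-beta T cells Il13 differed by -0.18 ± 2.23 (SD, n = 5; exact sign-flip permutation test, adjusted p = 0.875). The sign of that difference turned with 1 more marker required, with mixed cells kept and without the library labelled SARAWT PBS 1 or 3.

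Within alpha-beta T cells, the order of Cd4 cells, Cd8a cells and cells with neither UMI turned with the summary used. Summed over libraries, 268 cells with a Cd4 UMI stood at 728 CPM of Il5, 276 CPM of Il13 and 334 CPM of Il1rl1. The 338 cells with neither UMI stood at 181, 159.6 and 124 CPM and the 205 cells with a Cd8a UMI at 14.3, 27.9 and 6.13 CPM of the same genes. Over the 6 libraries with 10 cells of each, the medians of Il5, Il13 and Il1rl1 were instead higher with neither UMI (208, 45.1 and 162 CPM) than with Cd4 (113, 17.5 and 68.8 CPM). Only SARAWT bleomycin 3 and SARATg bleomycin had 10 Cd8a cells, 2 libraries in which the whole class was low in Il5 and Il13, so the sums also differ in which libraries they hold. Within those 2 libraries, Il5 in Cd4 cells was at 40.4 and 179 CPM and in Cd8a cells at 3.79 and 24.3 CPM. Il1rl1 was at 56.2 and 81.5 CPM against 1.89 and 8.96 CPM. Il13 had no common order, at 12.3 and 22.6 CPM in Cd4 cells and 1.89 and 44.8 CPM in Cd8a cells. These values are a description. Gamma-delta T cells were low in Il5, with a median of 4.54 CPM over 7 libraries, apart from 513 CPM in the SARATg PBS library, in which alpha-beta T cells were also at their highest level.

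IL-31, the itch cytokine of activated T helper 2 cells, was barely detected. Il31 had 35 UMIs in all skin libraries, with none in alpha-beta T cells, where 3 UMIs over the class would be 0.510 CPM. Stromal cells held 13 of the 35. No Il31 UMI was found in the 9 kidney libraries.

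**Figure D2:**
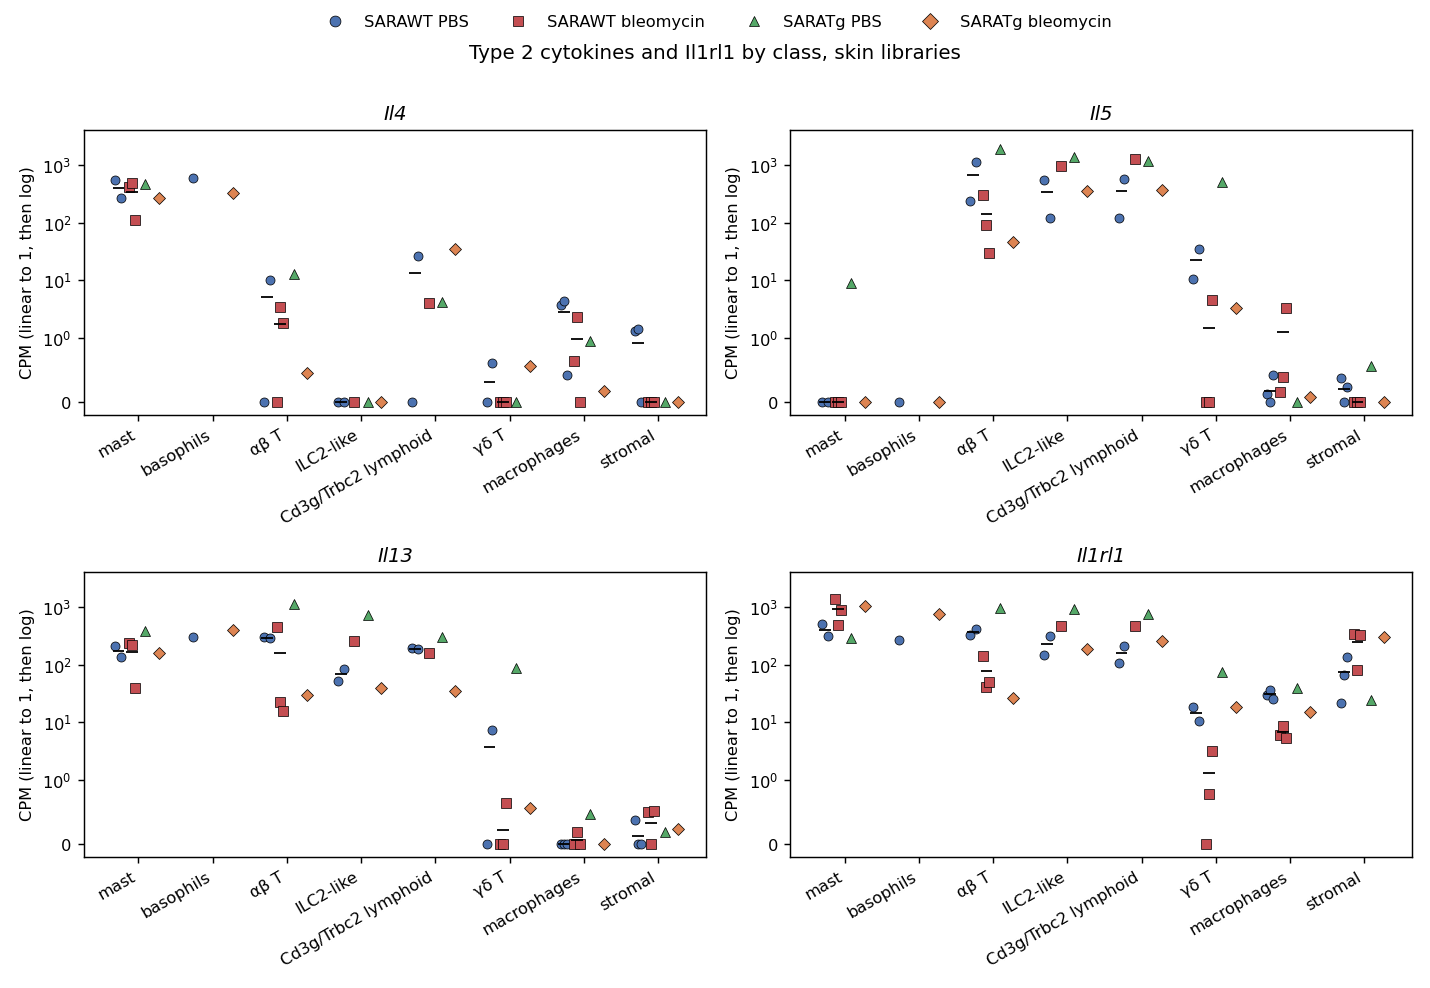
CPM of Il4, Il5, Il13 and Il1rl1 in 8 skin classes, 1 point per library with at least 10 cells, on a symmetric log axis that is linear up to 1 CPM, with horizontal bars at group means. Il4 sat in mast cells and basophils at 111 to 589 CPM, Il5 in ILC2-like, Cd3g/Trbc2 and alpha-beta T cells at 29.9 to 1925 CPM, and Il13 and Il1rl1 in both sets.

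Among the alarmins, IL-33 is stored in the nucleus of stromal and epithelial cells. Il33 was highest in fibroblast-like stromal cells of the skin, which held 1655 of 2796 UMIs (59.2%) at 6.25 to 139 CPM with a median of 58.3 CPM over 8 libraries. Keratinocytes ran from 5.11 to 56.3 CPM with a median of 23.7 CPM, Schwann cells from 0 to 18.1 CPM and macrophages from 0.475 to 5.87 CPM. Stromal cells were above keratinocytes in 7 of 8 libraries although the ranges overlapped. The differences on log2(CPM + 10) were 0.98 ± 0.769 over keratinocytes (SD, n = 8; exact sign-flip permutation test, adjusted p = 0.0290) and 2.40 ± 0.891 over macrophages (n = 8; same exact test, adjusted p = 0.0254). Skin endothelial cells had no Il33 UMI in any of the 8 libraries, in which 3 UMIs would be 6.98 to 63.6 CPM, or 2.13 CPM over all 259 cells. Stromal cells exceeded them in 8 of 8 libraries (2.60 ± 0.967, SD; exact sign-flip permutation test, adjusted p = 0.0254). Mural cells, the pericytes and smooth muscle cells of vessel walls, also had no Il33 UMI in the 4 libraries with 10 of them, where 3 UMIs would be 10.3 to 46.5 CPM and no exact p under 0.125 was possible.

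TSLP is known chiefly as an epithelial alarmin, but in these sorted cells its transcripts were mainly in macrophages. Macrophages held 1559 of 2651 Tslp UMIs (58.8%), 799 of them in the library labelled SARAWT PBS 1, at 7.85 to 112 CPM with a median of 17.4 CPM over 8 libraries. Stromal cells ran from 2.27 to 19.1 CPM with a median of 5.02 CPM, Cd209a dendritic cells from 0.892 to 9.69 CPM and keratinocytes from 0 to 6.45 CPM. Endothelial and mural cells, with medians of 10.9 and 10.4 CPM, rested on 19 and 12 UMIs. Keratinocytes were not above stromal cells: they were higher in 2 of 8 libraries, with a difference of -0.60 ± 0.660 (SD; exact sign-flip permutation test, p = 0.0469, adjusted p = 0.0813). The difference passed with 1 more marker required (-0.67, adjusted p = 0.0217) and with mixed cells kept (-0.64, adjusted p = 0.0234). After thinning cells with at least 1000 UMIs to 1000, 3.31% of 4654 macrophages held a Tslp UMI, against 0.532% of 2068 stromal cells and 0 of 2063 neutrophils. The library medians of these classes were 5074 to 12336.5, 1698.5 to 32376 and 2355 to 2926 UMIs. Unthinned, over all cells of each class, these shares were 16%, 5.33% and 0.0943%.

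The receptor chains divided the receiving cells. Il4ra, shared by both IL-4 receptors, was highest in lymphoid cells of the skin, with medians of 197 CPM in gamma-delta T cells (175 to 275 CPM), 196.5 CPM in ILC2-like cells (166 to 291 CPM) and 139 CPM in alpha-beta T cells (89.6 to 358 CPM), neighbours whose ranges overlapped. Macrophages ran from 67.9 to 128 CPM with a median of 97.2 CPM, stromal cells from 25.5 to 80.3 CPM with a median of 41.7 CPM, and keratinocytes from 4.82 to 17.2 CPM. Macrophages exceeded stromal cells by 0.92 ± 0.544 on the log2 scale (SD, n = 8; higher in 7 of 8; exact sign-flip permutation test, adjusted p = 0.0290).

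Il13ra1, which together with Il4ra makes the receptor that binds IL-13, had the reverse pattern in lymphocytes. Alpha-beta T cells held 2 Il13ra1 UMIs in 812 cells and ILC2-like cells 2 UMIs in 123, while neutrophils ran from 36.9 to 179 CPM with a median of 153 CPM and mural cells from 97.7 to 162 CPM with a median of 145 CPM. Cd209a dendritic cells held 35.5% of its 19645 UMIs at 64.9 to 208 CPM. Macrophages ran from 35.3 to 62.8 CPM and stromal cells from 31.8 to 73.0 CPM. Macrophages exceeded alpha-beta T cells by 2.58 ± 0.246 (SD, n = 7; exact sign-flip permutation test, adjusted p = 0.0290), and macrophages and stromal cells were not told apart (0.20 ± 0.388, SD, n = 8; exact sign-flip permutation test, adjusted p = 0.232). Fibroblast-like stromal cells thus carried transcripts of both chains of the IL-13 receptor, and T cells nearly of Il4ra alone, while mural cells were at 5.39 to 77.5 CPM of Il4ra on 11 UMIs.

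Il1rl1, the IL-33 receptor ST2, was at its highest in the producers of Il13. Mast cells ran from 294 to 1382 CPM with a median of 504 CPM over 7 libraries, basophils stood at 266 and 761 CPM, ILC2-like cells ran from 145 to 931 CPM with a median of 309.9 CPM and alpha-beta T cells from 26.2 to 969 CPM with a median of 142 CPM. These ranges overlapped, and mast cells were not told apart from ILC2-like cells (0.69 ± 1.58, SD, n = 5; exact sign-flip permutation test, adjusted p = 0.353). Fibroblast-like stromal cells, the main Il33 class, also carried Il1rl1, with 6249 of 19249 UMIs (32.5%) at 21.6 to 341 CPM. The Il1rl1 gene encodes both the membrane receptor and a soluble decoy, which these gene-level counts do not separate. Endothelial cells were at 0 in 5 of 8 libraries.

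Crlf2, the TSLP-binding chain, was broad in leukocytes and low in stromal cells and keratinocytes (median 5.10 CPM). Monocytes ran from 45.9 to 112 CPM with a median of 96.1 CPM, Cd209a dendritic cells from 56.8 to 108 CPM with a median of 90.3 CPM and macrophages from 55.8 to 93.3 CPM with a median of 80.6 CPM. These overlapped, and Cd209a dendritic cells were not told apart from macrophages (0.13 ± 0.151, SD, n = 8; exact sign-flip permutation test, adjusted p = 0.0889), except without PBS 1 (0.17, adjusted p = 0.0406). Macrophages exceeded stromal cells, at 15.0 to 25.5 CPM, in 8 of 8 libraries (1.52 ± 0.189, SD; exact sign-flip permutation test, adjusted p = 0.0254). Mature Ccr7 dendritic cells, with a median of 37.1 CPM, lay below macrophages in 7 of 7 libraries (-1.13 ± 0.838, SD; exact sign-flip permutation test, adjusted p = 0.0290).

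In all, 8 of 18 class comparisons in skin passed at an adjusted p under 0.05 over the family of 26. With any 1 skin library left out, 3 to 7 passed. The calls lost so, each without 7 of the libraries in turn, were Il4 in mast against alpha-beta T cells, Il33 in stromal cells against keratinocytes, Il4ra in macrophages against stromal cells, Il13ra1 in macrophages against alpha-beta T cells and Crlf2 in mature Ccr7 dendritic cells against macrophages, with adjusted p of 0.0542 to 0.0580, since fewer libraries raise the smallest exact p. Il33 in stromal cells against keratinocytes was also lost with a pseudocount of 1 CPM (adjusted p = 0.0725) and, with Il33 against endothelial cells, under a stricter cell filter (adjusted p = 0.0558 for both). Without shared barcodes both of these Il33 calls (0.0625) and that of Il4ra (0.0725) were lost in the same exact test. With at least 30 cells, both Il33 calls and those of Il4, Il13ra1 and Crlf2 in mature Ccr7 dendritic cells were lost (0.0913 to 0.25).

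Of the other receptor chains and decoys, Csf2rb, the signalling chain shared by the IL-3, IL-5 and GM-CSF receptors, stood high in mast cells (448 to 1778 CPM, median 1145 CPM over 7 libraries), and Il5ra had a median of 39.6 CPM there. Il7r, the partner of Crlf2, had medians of 600.2 CPM in ILC2-like cells, 485 CPM in alpha-beta T cells and 263 CPM in Cd209a dendritic cells. Il1rap, the partner of Il1rl1, ran from 92.6 to 174 CPM in mast cells and from 23.1 to 64.8 CPM in stromal cells. These 4 genes were chosen for their roles and after their values were seen, and none passed in a treatment comparison in edgeR.

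Across 23 skin classes, the 3 genes of highest Pearson r were taken for each of the 9 members with enough UMIs. The gene whose mean level followed a member most closely was Fcer1a for Il4 (r = 0.909), the alpha chain of the IgE receptor of mast cells and basophils, and Ccr8 for Il5 (r = 0.987), a chemokine receptor of type 2 lymphocytes. Csf2, which encodes GM-CSF, was second for Il13 (r = 0.922), and Ltbp2, an extracellular matrix protein, was first for Il33 (r = 0.943). Il13 was itself first for Il1rl1 (r = 0.801). The others were Ms4a2 and Slc18a2 for Il4 (r = 0.899 and 0.895), Trat1 and Olfr60 for Il5 (r = 0.976 and 0.971), 4932438H23Rik and Tespa1 for Il13 (r = 0.946 and 0.839), BC067074 and Baalc for Il33 (r = 0.935 and 0.921) and Furin and Cish for Il1rl1 (r = 0.783 and 0.766). For Tslp they were Gm4951, Gdf15 and C1qtnf1 (r = 0.839, 0.818 and 0.814), for Il4ra Mir155hg, Tnfaip3 and Fmnl1 (r = 0.927, 0.896 and 0.846), for Il13ra1 Anpep, Tmem141 and Stom (r = 0.8595, 0.829 and 0.828), and for Crlf2 Gpsm3, Hcls1 and Fxyd5 (r = 0.927, 0.923 and 0.917). These are the best of 14462 genes over classes that share libraries, given as a description. Fcer1a and Ms4a2 are among the markers that assigned cells to the mast cell and basophil classes, so their high levels there were built in.

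After bleomycin, 2 member transcripts passed in SARAWT skin, and both fell. The libraries labelled PBS 1 and 3 carried SARA signal and no bleomycin library stood at that level, so treatment and SARA signal cannot be fully told apart here. Calls are from edgeR with its filter on low counts and no block or gene list term, unless another fit is named. Of 53 pairs of a member and a class (all kept cells included) that passed the filter on low counts, 2 passed at an adjusted p under 0.05 in edgeR's quasi-likelihood test, 0 of them higher, and 20 had an unadjusted p under 0.05. Over all genes in the 13 classes with a member tested 0.705% passed, and 12.4% had an unadjusted p under 0.05. In other fits, some members passed as higher over all kept cells, sums in which cell content and level per cell cannot be told apart. Stromal cells, lower than macrophages in Il4ra and Crlf2, made up a mean of 10.4% of kept cells in PBS and 4.62% in bleomycin. The part of such shares in these calls was not tested. Il4ra passed in DESeq2 (0.57, adjusted p = 0.0249) and with a term for the gene list (0.56, edgeR adjusted p = 0.0369), and Crlf2 passed with that term, within the longer gene list and without PBS 3 (0.71 to 0.93, edgeR adjusted p of 0.0291 to 0.0447).

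Tslp fell in fibroblast-like stromal cells. It stood at 14.3, 16.0 and 19.1 CPM in the libraries labelled SARAWT PBS 1, 2 and 3, and at 5.94, 3.88 and 4.07 CPM in SARAWT bleomycin 1, 2 and 3. The groups did not overlap. The log2 fold change was -1.80 ± 0.35 (SE; edgeR adjusted p = 0.0309, and 0.0231 with the replicate block), in a class where 5.82% of all genes passed, with 2.94% of all genes lower. The call was lost in every fit that left out 1 library, at log2 fold changes of -1.60 to -2.07, with adjusted p of 0.0551, 0.0863 and 0.0877 without PBS 1, 2 and 3 and 0.0852, 0.0549 and 0.0848 without bleomycin 1, 2 and 3. It was also lost with 1 more marker required (-1.24, adjusted p = 0.144), with mixed cells kept (-1.25, adjusted p = 0.1299), within the longer gene list alone (-1.47, adjusted p = 0.156) and without barcodes shared between libraries (-1.92, adjusted p = 0.1286). Without both PBS libraries that carried SARA signal, only the shallow PBS 2 remained, and the log2 fold change was -1.76. Markers of other cells were also present in these stromal sums. The 15 macrophage markers summed to 926 to 1183 CPM in PBS and 617 to 1142 CPM in bleomycin, with overlap, and the 13 Cd209a dendritic cell markers to 346 to 625 CPM and 82.5 to 253 CPM, without overlap. Between 12 and 15 of the macrophage markers had UMIs in each library, and Cd209a itself was at 0 in bleomycin 1. Their part in the Tslp difference was not tested. In macrophages themselves Tslp stood at 97.97, 111.6 and 17.001 CPM in PBS and at 17.7, 48.9 and 8.26 CPM in bleomycin, which overlap (log2 fold change -1.47 ± 0.76, SE, edgeR adjusted p = 0.475, 0.0155 with the replicate block, and 0.0443 at -1.52 within the longer gene list).

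Il1rl1 fell in macrophages. It stood at 29.3, 36.7 and 25.8 CPM in the libraries labelled SARAWT PBS 1, 2 and 3, and at 6.13, 8.73 and 5.47 CPM in SARAWT bleomycin 1, 2 and 3, again without overlap. The log2 fold change was -2.06 ± 0.27 (SE; edgeR adjusted p = 0.0356, and 0.00227 with the replicate block), in a class where 0.208% of genes passed and 0.0379% passed lower. Without bleomycin 1, 2 or 3 the adjusted p was 0.236, 0.0662 and 0.0740, without PBS 1 or 2 it was 0.1298 and 0.1891, at log2 fold changes of -1.92 to -2.27, and without PBS 3 the call held (0.0136). Without barcodes shared between libraries it was 0.0767 (-2.09). Within the longer gene list alone, with 2 libraries a group, it was 0.00662 (-1.96), and the share of all genes passing there is not given. Without both PBS libraries that carried SARA signal, only the shallow PBS 2 remained, and the log2 fold change was -2.37. The 14 stromal markers summed to 69.5 to 206 CPM in macrophages of PBS libraries and to 40.3 to 63.4 CPM in bleomycin, and the 13 mast cell markers to 11.5 to 16.2 CPM and 13.1 to 29.7 CPM. Of the 13 mast cell markers, 5 to 11 had UMIs in each of these 6 macrophage sums. The 13 Cd209a dendritic cell markers summed to 22274 to 34321 CPM in PBS and 23802 to 28176 CPM in bleomycin, which was 39.7% to 59.0% of their sum in that class itself, and the 15 alpha-beta T cell markers to 45.5 to 91.0 CPM and 39.8 to 50.6 CPM. The part of these lists in the difference was not tested.

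In stromal cells Il1rl1 pointed the other way, and passed only with no filter on low counts. It stood at 21.6, 65.7 and 139 CPM in PBS and at 341, 81.5 and 327 CPM in bleomycin, with overlap (log2 fold change 1.70 ± 0.71, SE, edgeR adjusted p = 0.171, and 0.00373 with no filter). The fit with no filter had an SE of 0.40 on the same libraries. Its adjusted p is not read as a measure of the spread between libraries. The stromal level minus the macrophage level of the same library was -0.31, 0.70 and 2.05 on the log2 scale in PBS and 4.44, 2.29 and 4.44 in bleomycin. The shift of 2.91 had an exact permutation p of 0.1, the smallest that 3 against 3 libraries allow, and the comparison was added after the values were seen. In mast cells Il1rl1 stood at 504 and 313 CPM in the 2 PBS libraries with enough of them and at 1382, 481 and 904 CPM in bleomycin (1.10 ± 0.47, SE, edgeR adjusted p = 0.997).

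In alpha-beta T cells the lymphoid members were lower after bleomycin by fold change, but none passed in edgeR with the filter on low counts and no further term. This class was fitted with 2 PBS libraries, since PBS 2 had under 10 such cells, and 0.188% of its genes passed, with 0.154% lower. It made up 0.368% of 4076 kept cells in PBS 1 and 1.02% of 2155 in bleomycin 1, so these sums rest on few cells. Il5 stood at 241 and 1131 CPM in PBS 1 and 3 and at 301, 93.1 and 29.9 CPM in bleomycin (-2.44 ± 0.84, SE, edgeR adjusted p = 0.568). Il13 stood at 303 and 289.6 CPM and at 448, 22.8 and 15.5 CPM (-1.04 ± 1.13, SE, edgeR adjusted p = 0.896). Bleomycin 1 lay with the PBS libraries for both cytokines, and without it Il13 was at -4.01 (edgeR adjusted p = 0.00151). Il1rl1 stood at 335 and 419 CPM and at 142, 40.4 and 49.6 CPM, without overlap (-2.45 ± 0.49, SE, edgeR adjusted p = 0.136, and 0.00412 without bleomycin 1). Bleomycin 1 had the highest bleomycin value of both genes. The 2 adjusted p-values without it are therefore not read as support for a fall. In DESeq2 Il1rl1 passed in this class (-2.40, adjusted p = 0.00171), and with a term for the gene list Il1rl1 (-2.59, edgeR adjusted p = 0.0116) and Il4ra (-1.43, edgeR adjusted p = 0.0384) passed. With no filter on low counts Il5 (-2.49, edgeR adjusted p = 1.2e-11), Il1rl1 (-2.43, 2.7e-09) and Il4ra (-1.37, 0.0121) passed. For Il5 that fit had an SE of 0.32, against 0.84 with the filter, on the same libraries, whose Il5 values overlapped. Its adjusted p is therefore not read as a measure of the spread between libraries. Il4ra stood at 358 and 196 CPM and at 108, 89.6 and 98.7 CPM, without overlap (-1.43 ± 0.32, SE, edgeR adjusted p = 0.247). Markers of other cells were also lower in these T cell sums. The 13 mast cell markers summed to 218 and 169 CPM in PBS 1 and 3 and to 5.67, 43.9 and 31.7 CPM in bleomycin 1, 2 and 3, with 3 and 4 of them above 0 in PBS and 1, 4 and 2 in bleomycin. The 17 ILC2 markers summed to 7578 and 6731 CPM and to 3698, 3818 and 3863 CPM. Neither list overlapped between the groups, and their part in the differences was not tested.

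The other receptor and source values below did not pass in the filtered fit without a block. Il13ra1 in Xcr1 dendritic cells stood at 99.4, 84.4 and 53.1 CPM in PBS and at 29.7, 41.6 and 33.2 CPM in bleomycin, without overlap (-1.15 ± 0.27, SE, edgeR adjusted p = 0.322, and 0.0402 with the replicate block, 0.0119 with no filter and 0.0394 within the longer gene list). In Cd209a dendritic cells Il13ra1 passed within the longer gene list (-1.23, edgeR adjusted p = 0.0261) and without PBS 3 (-1.19, edgeR adjusted p = 0.0300). Il5 in gamma-delta T cells passed with no filter (-3.21, edgeR adjusted p = 0.000113) and with a term for the gene list (-3.21, edgeR adjusted p = 0.0177). Adjusted p-values with no filter are not read here as a measure of the spread between libraries. Il4ra in stromal cells stood at 68.0, 80.3 and 47.2 CPM and at 40.6, 31.8 and 37.7 CPM, without overlap (-0.78 ± 0.24, SE, edgeR adjusted p = 0.0837). Il33 in stromal cells overlapped, at 67.5, 139 and 33.2 CPM in PBS and 91.1, 36.5 and 73.3 CPM in bleomycin (-0.14 ± 0.50, SE, edgeR adjusted p = 0.892). Il4 in mast cells stood at 548 and 269 CPM and at 414, 481 and 111 CPM (-0.35 ± 0.57, SE, edgeR adjusted p = 0.997).

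**Figure D3:**
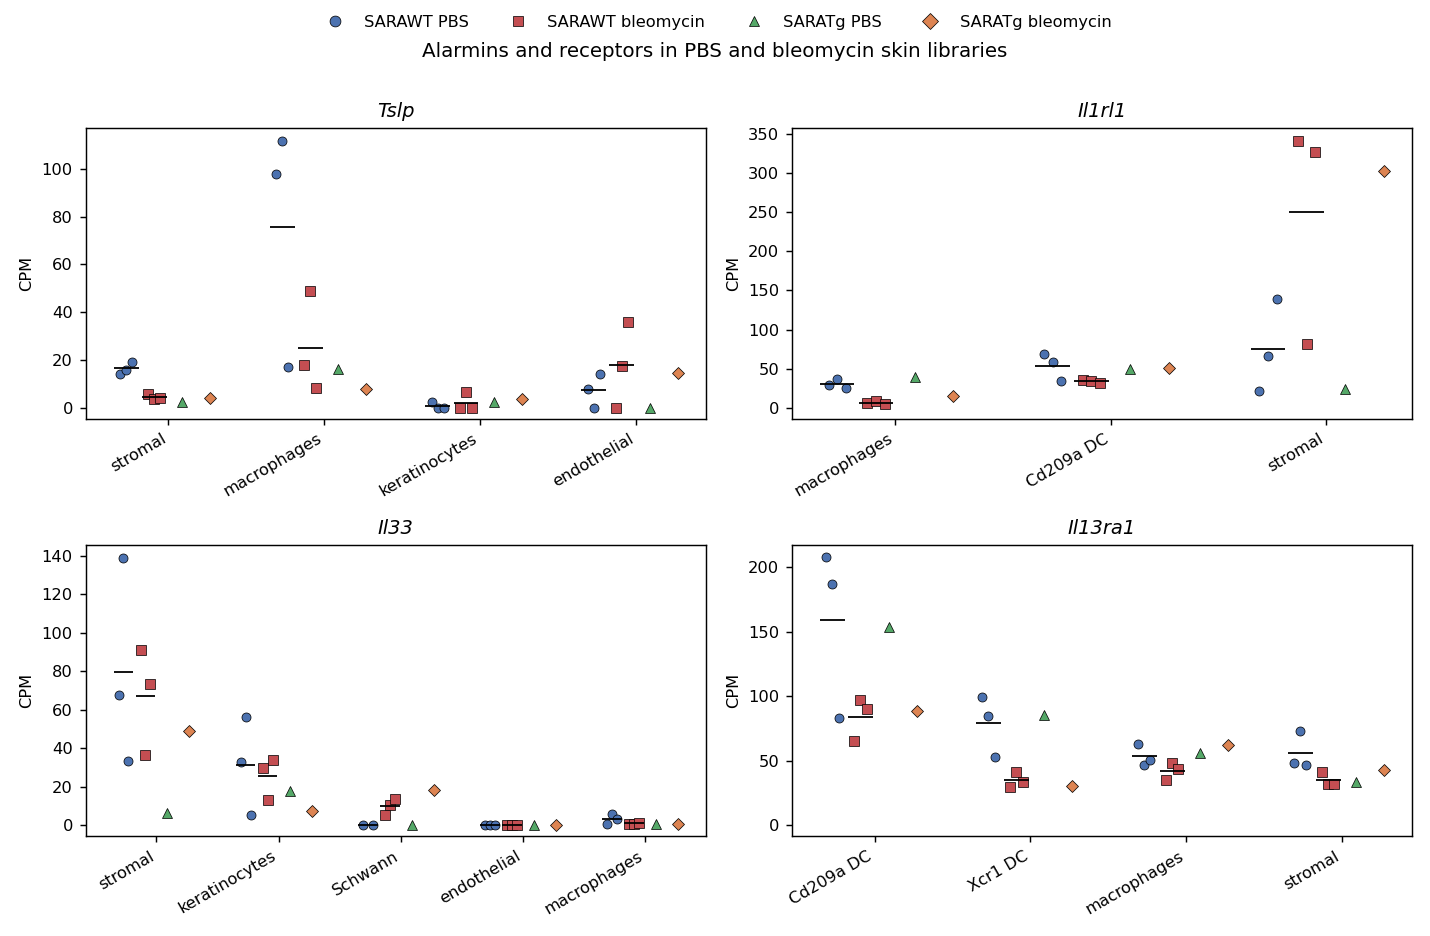
CPM of Tslp, Il1rl1, Il33 and Il13ra1 in selected skin classes by group, 1 point per library on a linear axis from 0, with horizontal bars at group means. Tslp in stromal cells and Il1rl1 in macrophages separate the 3 SARAWT PBS from the 3 SARAWT bleomycin libraries, at 14.3 to 19.1 against 3.88 to 5.94 CPM and 25.8 to 36.7 against 5.47 to 8.73 CPM.

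**Figure D4:**
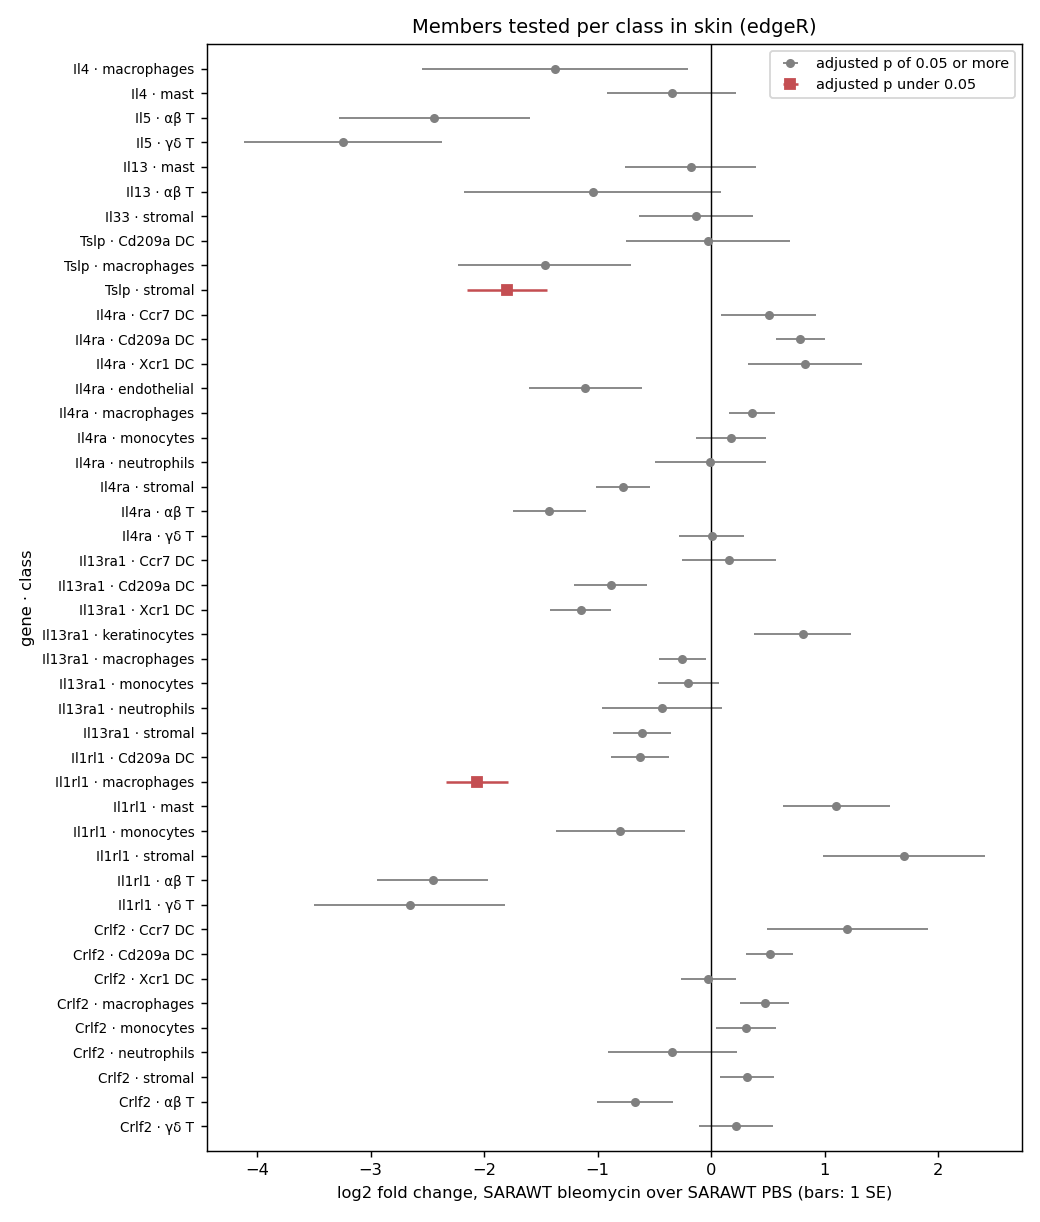
Log2 fold change of each member in each class tested in SARAWT skin, bleomycin over PBS, from edgeR, with bars of 1 SE and squares for an adjusted p under 0.05. The 2 squares are Tslp in stromal cells (-1.80) and Il1rl1 in macrophages (-2.06).

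With 1 SARATg library per treatment in skin there is no test, and exact Poisson intervals (95%) cover counting error only. Tslp in stromal cells was at 2.27 CPM (1.46 to 3.38) in SARATg PBS and at 4.10 CPM (3.06 to 5.38) in SARATg bleomycin, both under every SARAWT PBS library. Il1rl1 in macrophages was at 39.7 CPM (33.9 to 46.1) and 14.9 CPM (12.8 to 17.3), and Il1rl1 in stromal cells at 24.2 CPM (21.4 to 27.4) and 302 CPM (292 to 311). In alpha-beta T cells the SARATg PBS library had the highest level of 7 libraries for Il5 (1925 CPM), Il13 (1123 CPM) and Il1rl1 (969 CPM), and SARATg bleomycin stood at 46.1, 29.9 and 26.2 CPM. Il33 in stromal cells was at 6.25 CPM (4.83 to 7.95) in SARATg PBS, the lowest of 8 libraries, and at 49.1 CPM (45.3 to 53.1) in SARATg bleomycin.

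No share of a source class passed between the 3 SARAWT PBS and 3 SARAWT bleomycin skin libraries, in an exact permutation test that cannot go below p = 0.1 here. Fibroblast-like stromal cells made up 10.4% ± 3.62 and 4.62% ± 2.58 of kept cells (SD; exact permutation p = 0.2, adjusted p = 0.467). Alpha-beta T cells made up 0.790% ± 0.830 and 2.35% ± 1.22 (SD; exact permutation p = 0.2), and mast cells 3.55% ± 3.24 and 1.65% ± 1.05 (SD; exact permutation p = 0.5). Keratinocytes, at 2.53% ± 1.19 and 0.872% ± 0.450, reached the smallest possible p (exact permutation p = 0.1, adjusted p = 0.467). Between libraries of the same replicate number, the stromal share was lower after bleomycin in 3 of 3 pairs (11.04 and 5.10%, 13.7 and 6.92%, 6.54 and 1.83%), and so was the keratinocyte share. The shares of alpha-beta T cells (0.368 and 1.02%, 0.256 and 2.63%, 1.75 and 3.41%), regulatory T cells and macrophages were higher in 3 of 3 pairs. With 3 pairs an exact sign-flip permutation test cannot go below p = 0.25, and this comparison was added after the values were seen. ILC2-like cells (0.305% and 0.296%), macrophages (17.003% and 20.82%) and regulatory T cells (0.0585% and 0.148%) had exact permutation p of 1, 0.7 and 0.3.

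Among other genes of the pathway, all those that passed with bleomycin fell. Over all genes in the 14 classes with a pathway gene tested, 1.12% passed and 13.3% had an unadjusted p under 0.05. Of 88 pairs of an IL-4 and IL-13 response gene and a class, 4 fell and 0 rose, and 30 had an unadjusted p under 0.05. The 4 were Retnla (-2.85), Mgl2 (-2.38) and Klf4 (-1.15) in stromal cells, where 5.82% of all genes passed (2.94% lower), and Klf4 (-1.16) in Schwann cells, where 9.44% of all genes passed (4.82% lower). Retnla and Mgl2 are markers of alternatively activated macrophages, and the part of the macrophage and dendritic cell markers found in stromal cells was not tested. Of 30 pairs for other type 2 cytokines, 2 fell and 11 had an unadjusted p under 0.05. Csf2 in alpha-beta T cells stood at 2560 and 743 CPM in PBS 1 and 3 and at 0, 5.27 and 13.2 CPM in bleomycin (-7.47 ± 0.65, SE, edgeR adjusted p = 0.00260), in the T cell sums whose mast cell and ILC2 markers were also lower. The PBS values rest on 329 and 436 UMIs, in PBS 1 from a class that made up 0.368% of 4076 kept cells. Csf2 is itself an ILC2 marker, and the other 16 summed to 5018 and 5989 CPM in PBS and to 3698, 3812 and 3850 CPM in bleomycin. Their part in the Csf2 difference was not tested. Il6 in stromal cells stood at 144, 375 and 141 CPM and at 11.9, 60.5 and 33.6 CPM (-2.66 ± 0.58, SE, edgeR adjusted p = 0.0401). Of 164 pairs for signal transducers and inhibitors, Stat3 in Schwann cells fell (-1.49) and 19 had an unadjusted p under 0.05, and of 58 pairs for other receptor chains 0 passed in edgeR, with 5 at an unadjusted p under 0.05.

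In kidney the type 2 cytokines Il5 and Il13 were close to absent. Il5 had 15 UMIs and Il13 had 72 UMIs over all 71324 cells, against 5573 and 2590 in the 30085 skin cells. Of the Il13 UMIs, 26 were in regulatory T cells, a class with 2 of 5 check markers raised, 21 of them in the library labelled SARAWT aristolochic acid 2 (46.4 CPM). Il4 had 334 UMIs, against 966 in skin. Alpha-beta T cells held 139 of the 334 (41.6%) at 0.563 to 26.6 CPM, with a median of 1.79 CPM in kidney and in skin. ILC2-like cells ran from 0 to 35.9 CPM with a median of 16.7 CPM in 3 libraries, and basophils stood at 190 CPM in the only library with 10 of them. Kidney mast cells numbered 6.

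In kidney, the alarmin Il33 had its highest median in endothelial cells, among classes with more than 1 library. Kidney endothelial cells held 435 of 1032 Il33 UMIs (42.2%), at 30.9 to 126 CPM with a median of 53.4 CPM over 8 libraries, and exceeded proximal tubule cells, at 0.331 to 1.66 CPM, in 8 of 8 libraries (2.61 ± 0.565, SD; exact sign-flip permutation test, adjusted p = 0.0254). Kidney fibroblast-like stromal cells were at 45.4 CPM in the single library with 10 of them, and mural cells were at 0 in 3 libraries, where 3 UMIs would be 36.5 to 66.6 CPM. In skin endothelial cells, with no Il33 UMI, 3 UMIs over the class would be 2.13 CPM, under the lowest kidney library. The tissues were separate experiments, and tissue and experiment cannot be told apart. Tslp had 409 UMIs in kidney, of which macrophages held 133 (32.5%) at 0.557 to 8.90 CPM.

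The receptor chains Il4ra, Il13ra1 and Crlf2 stood high in myeloid cells of the kidney. Il4ra ran from 31.4 to 125 CPM in macrophages with a median of 58.9 CPM and from 2.06 to 10.2 CPM in proximal tubule cells (difference 2.20 ± 0.539, SD, n = 9; exact sign-flip permutation test, adjusted p = 0.0254). Il13ra1 ran from 90.9 to 253 CPM in neutrophils and from 16.4 to 36.5 CPM in proximal tubule cells, which macrophages exceeded by 0.62 ± 0.409 (SD, n = 9; exact sign-flip permutation test, adjusted p = 0.0254). Crlf2 had its highest medians in Cd209a dendritic cells (192 CPM, 146 to 232 CPM), neutrophils (170 CPM) and macrophages (149.8 CPM), and macrophages exceeded alpha-beta T cells in 9 of 9 libraries (0.90 ± 0.256, SD; exact sign-flip permutation test, adjusted p = 0.0254). Il1rl1 was highest in ILC2-like cells at 71.5 to 395 CPM in 3 libraries, in Cd209a dendritic cells at 22.0 to 85.2 CPM and in regulatory T cells at 5.52 to 70.0 CPM. Endothelial cells, the class with the highest Il33 median, held 1 Il1rl1 UMI in 1907 cells. Of 8 kidney comparisons, 6 passed.

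**Figure D5:**
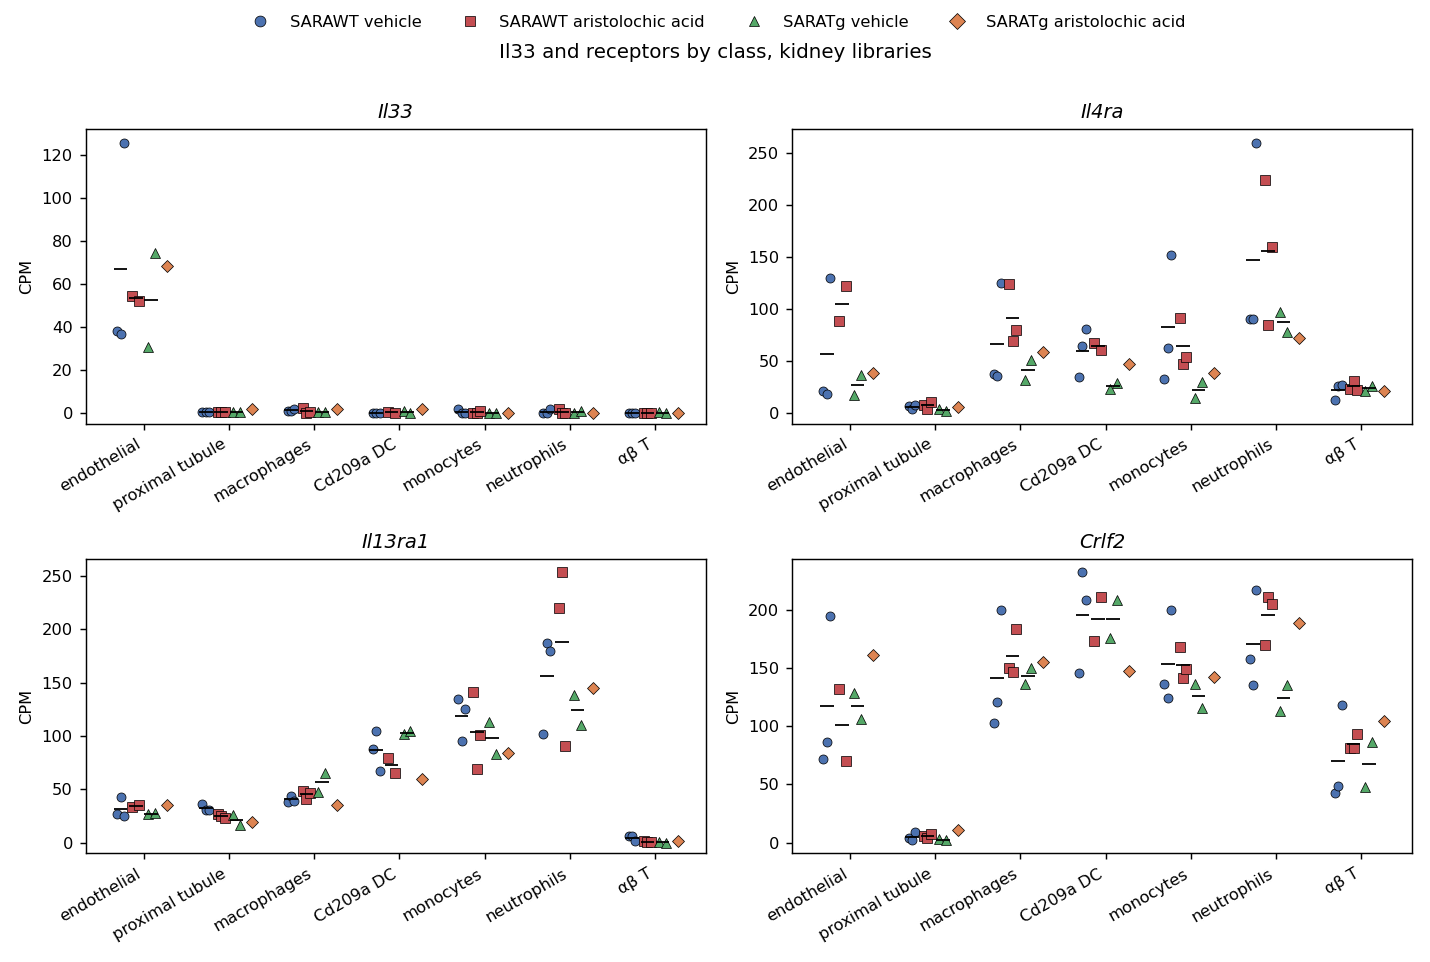
CPM of Il33, Il4ra, Il13ra1 and Crlf2 in selected kidney classes by group, 1 point per library with at least 10 cells on a linear axis, with horizontal bars at group means. Among these classes Il33 was high in endothelial cells alone, at 30.9 to 126 CPM, and the library labelled SARAWT vehicle 3 lies above the other 2 vehicle libraries for Il4ra in macrophages (125 CPM against 37.3 and 35.8 CPM).

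Aristolochic acid and SARA gave no call among the members in kidney. Of 41 pairs of a member and a class in aristolochic acid against vehicle, 0 passed in edgeR and 0 in DESeq2, with 4 at an unadjusted p under 0.05 in edgeR, against 0.0204% of all genes in these classes passing and 7.81% at an unadjusted p under 0.05. The 4 were Il13ra1 in proximal tubule cells (-0.51 ± 0.18, SE), Xcr1 dendritic cells (-0.73 ± 0.29, SE) and alpha-beta T cells (-1.96 ± 0.73, SE), and Il1rl1 in macrophages (-1.54 ± 0.62, SE). The library labelled SARAWT vehicle 3 lay with the treated libraries for several members. Crlf2 over all cells was at 113 CPM there against 8.84 and 12.4 CPM in vehicle 1 and 2 and 97.0, 48.3 and 97.7 CPM in aristolochic acid 1, 2 and 3. Such sums also differ in the cells they hold. Cd8a alpha-beta T cells numbered 86, 44 and 1438 of 11773, 11197 and 7606 kept cells in vehicle 1, 2 and 3. In aristolochic acid 1, 2 and 3 they numbered 1093, 659 and 983 of 7772, 4808 and 5838. Cell content and level per cell cannot be told apart in these sums. In the fit with all libraries, Crlf2 was at 0.15 ± 0.33 in macrophages and 0.31 ± 0.43 (SE) in alpha-beta T cells. The 0.0204% of all genes belongs to the fit with all libraries, and the share without vehicle 3 is not given here. Each library was left out in turn, and 0 pairs passed in edgeR without any library other than vehicle 3. Without vehicle 3, 7 pairs passed in edgeR at adjusted p of 0.0130 to 0.0459, all higher. They were Tslp (2.32), Il4ra (2.17), Il1rl1 (2.51) and Crlf2 (2.81) over all cells, Il4ra in endothelial cells (2.28) and macrophages (1.44), and Crlf2 in alpha-beta T cells (1.13). Vehicle 3 stands out by values of these same members, and vehicle 1 and 2 alone then remain as controls. The 7 calls are therefore not read as a rise with aristolochic acid. In SARATg against SARAWT vehicle, 0 of 43 pairs passed in edgeR and 0 in DESeq2, with 4 at an unadjusted p under 0.05 in edgeR and 0.0312% of all genes in these classes passing and 5.14% at an unadjusted p under 0.05. Il4 in alpha-beta T cells stood at 10.9 and 26.6 CPM in the 2 SARATg vehicle libraries and at 1.06, 8.50 and 0.563 CPM in SARAWT vehicle, without overlap (3.02 ± 1.06, SE, edgeR adjusted p = 0.864). The other 3 were Il4 over all cells (2.97 ± 0.95, SE) and Il4ra in Cd209a dendritic cells (-1.28 ± 0.51, SE) and monocytes (-1.96 ± 0.72, SE). Of the pathway lists, 0 genes passed in either kidney comparison in edgeR, with 11 of 306 and 10 of 294 pairs at an unadjusted p under 0.05, where over all genes in their classes 0.0202% and 0.031% passed and 7.84% and 5.12% had an unadjusted p under 0.05.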

How the data were processed

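The deposited values are UMI counts per gene and cell barcode, made by the authors with Cell Ranger (3.0.2 per the labels; 3.0.2, 3.1.0 or 4.0.0 per the file headers) on mm10; the headers give 31053 genes, or 32286 with human ZFYVE9 for 4 skin libraries. The 30406 shared genes were used.

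Barcodes passed with a minimum of 200 genes and a mitochondrial share no higher than 20% (skin) or 50% (kidney). A class needed at least 3 gate markers above the library's mean share. Cells with markers of more than 1 family were left out, which was the treatment of doublets; no doublet caller was run. The receptor-gene split of lymphoid cells was chosen after seeing the data. Of cells near the gate, 2275 in skin and 4398 in kidney stood exactly at 3 markers, and 2091 and 3832 at 1 fewer.

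Sums of UMIs over the cells of a class in each library went into edgeR 4.0.16 (R 4.3.3; filterByExpr, TMM, quasi-likelihood F test), Benjamini-Hochberg over all genes of a class, with DESeq2 1.42.0 as an alternative. Log2 fold changes come from that fit. Classes of the same library were compared by two-sided exact sign-flip tests of log2(CPM + 10), adjusted over 26 comparisons, with scipy 1.17.1 and pandas 2.3.3 in Python 3.11.15. In the filtered edgeR fit and the exact tests, the p-values measure the spread between libraries. The labels do not say whether a library is 1 animal. Simulated data for skin macrophages with the estimated dispersion (10391 genes) recovered 9.38% of genes changed 2-fold and 71.1% of those changed 4-fold. With that dispersion divided by 4, the shares were 72.4% and 98%.

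Skin SARAWT replicate numbers met the rule for pairing: over genes, same-numbered libraries deviated together (every correlation above 0.1) in 6 of 8 classes with 3 pairs (all kept cells counted as a class), among them stromal cells, macrophages and Xcr1 dendritic cells. Libraries numbered 1 and 2, which share the longer gene list, also deviated together across numbers (r of 0.28 to 0.36 over all kept cells and 0.17 to 0.44 in macrophages, against 0.20 to 0.62 and 0.32 to 0.60 for equal numbers), so gene list and pairing cannot be told apart in these. In stromal cells they correlated at -0.019 to 0.032 across numbers, against 0.22 to 0.44 for equal numbers. The fit with the replicate number as a block is given beside a result where pairing held and it changed a call; for classes with 2 pairs, such as alpha-beta T cells, the closing section gives it.

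All members are named; pathway genes are named where they passed, at most 6 per list (and 4 receptor chains outside this rule), as are the 3 genes most like each member by Pearson r of log2(mean CPM + 1) over skin classes. The members and lists were chosen with earlier results of these data known. Promoters came from RefSeq (GRCm38.p6; 9 of 10 members matched, and the other is not shown).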

Additional observations from a re-analysis of the deposited data

Results flagged for a closer look

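In 3 cases every SARAWT treated library lay on one side of the SARAWT controls and the SARATg difference pointed the other way. The number of pairs searched and the share of all genes that meet this rule are not given, so the 3 cases are a description. The values are differences of log2(mean CPM + 10), treated minus control, with 1 SARATg library in at least 1 arm, and the difference between genotypes was not tested. Tslp in skin stromal cells was -0.86 in SARAWT and 0.20 in SARATg, 1.06 apart. Il13ra1 in skin stromal cells was -0.54 in SARAWT and 0.27 in SARATg, 0.82 apart. Il4ra in kidney B cells was 0.75 in SARAWT and -0.22 in SARATg, -0.97 apart. These values keep the labels, which the SARA signal goes against in skin (SARAWT PBS 1 and 3) and in kidney, where Zfyve9 was at 167 CPM in the library labelled SARAWT aristolochic acid 1 and at 20.7 CPM in the one labelled SARATg aristolochic acid 1. What genotype these libraries had was not tested.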

How the results depend on the processing

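Calls among the members in skin bleomycin against PBS numbered 2. They numbered 4 in DESeq2, 8 with no filter on low counts, 7 with a term for the gene list and 5 within the longer gene list. They numbered 1 with 1 more marker, 1 with mixed cells kept and 0 without shared barcodes, and ran from 0 to 3 with 1 library left out. The fit without the 2 PBS libraries with SARA signal leaves 1 PBS library and is given by fold change only. The share of all genes passing is given for the main fit alone, so these counts and those of the other fits below lack it. A block for the replicate number gave 10 calls in skin, among them Il5 (-2.69), Il13 (-1.78), Il4ra (-1.28) and Il1rl1 (-2.31) in alpha-beta T cells, Il5 in gamma-delta T cells (-3.00) and Il1rl1 in mast cells (1.45), classes with 2 pairs in which pairing could not be checked; the numbers did not pair kidney libraries, where the block gave 1 call for aristolochic acid and 2 for SARATg. Kidney calls for aristolochic acid ran from 0 to 7 with 1 library left out, and those for SARATg stayed at 0. Class comparisons that passed in skin rose from 8 to 9 with 1 more marker and with mixed cells kept, and fell to 7 with a pseudocount of 1 CPM, 6 with the stricter cell filter, 5 without shared barcodes, 3 with at least 30 cells and 0 with SARAWT libraries alone, where too few libraries remain for the adjusted threshold, and ran from 3 to 7 with 1 left out. In kidney they fell from 6 to 0 with SARAWT libraries alone and ran from 5 to 6, where Il13ra1 in macrophages against endothelial cells was lost. Il13 in ILC2-like against alpha-beta T cells turned to 0.55 with 1 more marker, 0.013 with mixed cells kept, 0.018 with both innate lymphoid classes joined, and 0.35 and 0.19 without SARAWT PBS 1 and 3 (range with 1 library left out -1.07 to 0.35). The share of ILC2-like cells turned to 0.0277 percentage points with 1 more marker, 0.0546 without shared barcodes, and 0.0968, 0.115 and 0.0693 without PBS 3, bleomycin 1 and bleomycin 2, and that of macrophages to -0.213 without PBS 3 (range to 8.66). The settings on gene list, shared barcodes, joined classes and SARA signal were chosen after seeing the data. Classes under 10 cells in a library were not tested there.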

Other observations

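Skin cells that took no class held 21.7% of Il4, 22.9% of Il5, 27.1% of Il13 and 20.0% of Il1rl1 UMIs. Il1rl1 reached 669.7 CPM in such cells of the library labelled SARAWT PBS 2, against 52.5 CPM in the lowest library and a median of 95.9 CPM.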
